A study of Mus musculus with 23 samples.

Results

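Gene expression was compared between a pair of RNA libraries made from day 7 adipocytes, 1 by the TELP procedure under the label N9 and 1 by a standard procedure. They are 2 of 6 RNA libraries in a series of 23 samples, and were taken by their labels and not by any measured value. Both came from C3H10T1/2, a mouse mesenchymal stem cell line of the C3H strain. The cells of all groups used here were grown in medium with 10% Fetalclone III serum and, before differentiation, received 8.3 nM human recombinant BMP7 for 3 days. Day 0 cells (the groups used for comparison) stopped there. Day 7 cells were induced from day 0 to day 2 with 5 uM dexamethasone (DEX), 0.5 mM IBMX, 0.12 ug/ml insulin, 1 uM of a compound labelled Rosi and 1 nM T3, and kept until day 7 in insulin, Rosi and T3. All groups carry the same line and the same BMP7 treatment. For the standard library, messenger RNA was taken from total RNA on oligo(dT) beads, broken into fragments of about 200 bp and copied with random hexamers by a sequencing company. The TELP library followed the published TELP procedure, in which the details of N9 are not spelled out by the labels. Nothing in the labels says whether both day 7 libraries came from the same culture or the same RNA, so library procedure and culture cannot be told apart.

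During adipogenesis a fibroblast-like precursor leaves the cell cycle, reduces the collagen-rich matrix it secretes, and switches on PPARG and C/EBP factors, which drive genes for lipid storage, insulin-responsive glucose uptake and hormones such as adiponectin. Mitochondria multiply at the same time, and precursors exposed to BMP7 can take on brown fat features, with genes for heat production. Cells short of oxygen stabilise hypoxia-inducible factor (HIF), which raises glucose transport, glycolysis and enzymes that restrain its own activity.

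The values are RPKM, reads per kilobase of gene model, scaled to a fixed read total. The median ratio of TELP N9 to standard over the 10008 genes above 1 RPKM in both libraries was 0.861, and both columns were scaled to remove it. Differences are log2((scaled RPKM + 1) / (scaled RPKM + 1)), TELP N9 minus standard, for the 11018 of 24029 genes with a scaled mean of at least 1. For genes with low values they are smaller than the plain ratio. With 1 library a side no difference has a replicate error and no test was possible, so calls rest on a fixed rule of size, a difference of at least 1 upward or downward. RPKM values given per library are as deposited. The standard library held about 14200000 fragments and the TELP N9 library about 5500000, as estimated from the steps in low values. At 1 RPKM a 2 kb transcript would then rest on 25.5 and 9.89 fragments.

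At this rule 1186 genes (10.8%) were called higher in TELP N9 and 1445 (13.1%) lower, and 47.6% of the genes differed by less than 0.5. The median over all genes kept was −0.04. Differences of at least 3 were found for 85 genes on the higher and 102 on the lower side. Of the calls, 45.1% were on the higher side, against 30.7% when the values were left as deposited, 54.7% under a stricter filter, a mean of 5 RPKM, and 5.19% when both columns were scaled to equal totals. Equal totals moved the median of all genes to −0.90 and values as deposited moved it to −0.23, so that list medians under those scalings should be read against these figures. The scatter of both libraries shows the groups that lay farthest from the diagonal.

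**Figure D1:**
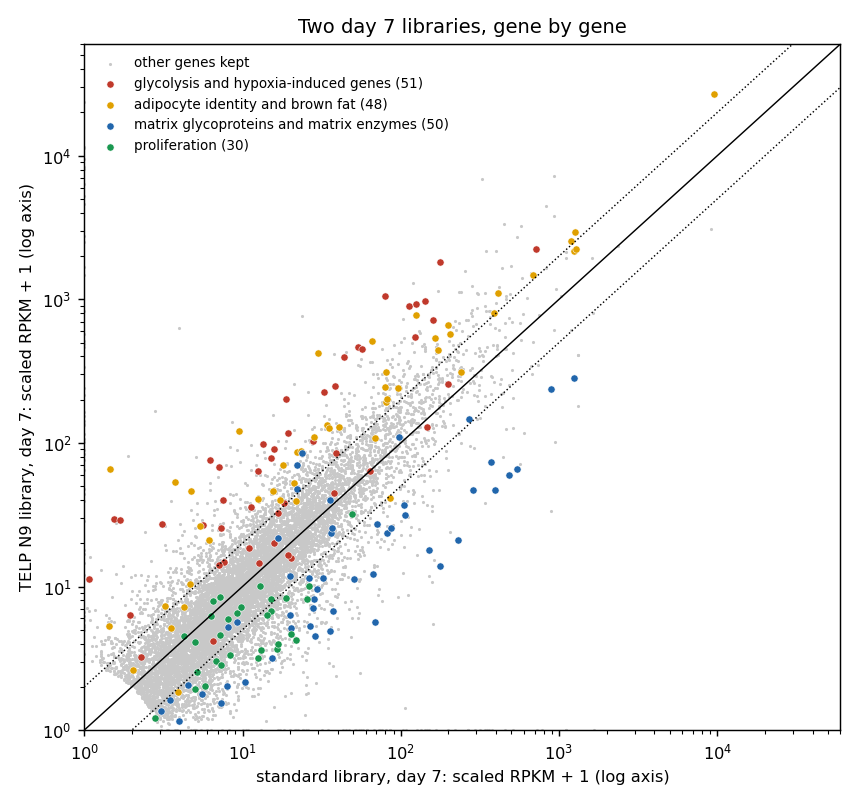
Scaled RPKM + 1 of each gene kept in the standard (x axis) and the TELP N9 library (y axis) of day 7, both axes logarithmic, with coloured points for 4 sets of listed genes and their number. The solid line marks equal values and the dotted lines a 2-fold difference. Glycolysis and hypoxia-induced genes lie mostly above the upper dotted line, and matrix genes mostly below the lower one.

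Both libraries carried the defining genes of the fat cell, which checks the day 7 label. Fabp4, which carries fatty acids inside adipocytes, reached 10253 RPKM with the standard and 24892 with the TELP N9 procedure, a difference of 1.495 that turned to −1.48 under quantile normalization. Adipoq, the gene of adiponectin, was at 1335 and 2018 RPKM (difference 0.81), and Pparg, the factor that directs fat cell formation, at 73.0 and 99.2 (0.65). Neither of these differences reached the rule of size. Plin1, a coat protein of lipid droplets, was at 183 and 411 RPKM (1.38), and Cebpa, a partner of PPARG, at 35.5 and 122 (1.97). Dlk1, a precursor marker, was under the filter at 0.784 and 0.395 RPKM. The same genes were at 6.99 RPKM or less at day 0 in both libraries for Fabp4, Adipoq, Plin1 and Cebpa, while Pparg was already at 27.0 and 20.2.

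Genes of glucose breakdown stood higher in the TELP N9 library. Of 15 glycolysis genes kept, 13 were higher and 0 lower, with a median of 2.70. Pgk1, which makes ATP in the pay-off phase of glycolysis, was at 84.7 RPKM in the standard library and 976 in TELP N9, a 13.4-fold difference after scaling (log2 difference 3.73). Its day 0 levels were 70.4 RPKM in the standard library and 100.4 in TELP N9, so that 1 of the 4 libraries stood far above the other three. Slc2a1, the basal glucose transporter GLUT1, was at 17.9 and 20.2 RPKM at day 0 and at 6.58 and 62.0 at day 7 (3.26), so that its standard day 7 library was the lowest of the 4 and TELP N9 day 7 the highest. Gpi1, which turns glucose phosphate into fructose phosphate, was at 46.1 and 369 RPKM at day 7 (3.19). Gapdh was at 121 and 832 RPKM (2.98), a value that is uncertain because the gene has many near-identical processed copies. The 2 members not called were Hk1, a hexokinase of general use (0.25), and Pfkm, the muscle form of phosphofructokinase (−0.37), which were named after their values were seen. The list's median was 0.08 between the day 0 libraries.

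Genes that HIF is known to induce outside glycolysis were listed after these values had been seen, so their direction is a description only. Of 36 kept, 22 were higher and 0 lower, with a median of 1.69. Ak4, a mitochondrial adenylate kinase, was at 0.586 RPKM in the standard library and 26.7 in TELP N9 (4.27). Egln3, a prolyl hydroxylase that marks HIF for destruction, was at 0.741 and 25.997 RPKM (4.104). Pdk1, the kinase that keeps pyruvate out of mitochondria, was at 5.67 and 69.8 (3.60), and Ero1l, an oxidase for disulfide bonds in the endoplasmic reticulum, at 19.3 and 186 (3.41). At day 0 Pdk1 was at 5.87 RPKM in the standard library and 5.98 in TELP N9, and Ero1l at 9.97 and 9.15, while Ak4 and Egln3 were under the filter there. Hif1a and Epas1, which encode the oxygen-labile HIF subunits, were not called at −0.75 and 0.38. Of 6 oxygen sensing factors, also listed after the values were seen, 0 were called in either direction. That list leaves out the prolyl hydroxylase genes Egln3 and Egln1 (2.39), which were placed on the hypoxia-induced list and were higher. Not every known target was higher. Hmox1, the haem oxygenase, was at 156 and 119.7 RPKM (−0.17), and Adm, a vasodilator peptide, at 5.99 and 2.93 (−0.66); both were named after their values were seen.

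The 4 genes described first from each of these lists differ most within them. In the 250 bases before an annotated start, 5 of these 8 hold ACGTG, a form of the core of the HIF-bound element. A gene with several starts was counted if any of them had a match, and the first such start is shown. Gpi1 and Gapdh had windows but no match before a start, and Pdk1 had no match there or no window. The share over all genes was not computed for these 250 bases, so 5 of 8 has no background beside it. The 5 stretches are printed so that the element can be seen beside the levels. The letters searched were ACGTG on both strands, so CACGT on the strand shown. An overlapping pair makes CACGTG, the E-box that other factors also bind. Other forms of the element were not searched and are not marked. Sequences are from RefSeq on GRCm38.p6, which is not the mm9 build named for the RPKM values, and run 5′ to 3′ on the gene's strand with the match in capitals. Ak4 lies at chr4:101419459-101419524 on the plus strand, Egln3 at chr12:54204069-54204124 on the minus strand, Pgk1 at chrX:106186920-106187003 on the plus strand, Ero1l (now Ero1a) at chr14:45318601-45318665 on the minus strand and Slc2a1 at chr4:119108679-119108743 on the plus strand. All stretches end before the start that was used.
Ak4: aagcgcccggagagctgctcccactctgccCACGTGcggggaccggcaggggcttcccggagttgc
Egln3: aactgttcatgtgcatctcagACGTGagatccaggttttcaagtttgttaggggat
Pgk1: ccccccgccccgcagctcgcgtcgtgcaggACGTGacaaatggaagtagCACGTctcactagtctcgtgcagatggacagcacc
Ero1l: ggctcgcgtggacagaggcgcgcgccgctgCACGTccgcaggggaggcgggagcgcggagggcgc
Slc2a1: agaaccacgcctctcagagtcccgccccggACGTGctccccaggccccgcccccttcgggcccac
The nearest match began 213 bases before the start in Ak4, 229 in Egln3, 131 in Pgk1, 63 in Ero1l and 36 in Slc2a1. Of the 25 windows of 300 bases around the starts of the 15 glycolysis genes, 12 (48%) held the letters. The share was 26.3% of 11088 windows of the genes kept here and 19.6% of all 32851 windows in the table. A gene with several annotated starts adds several windows, which are not independent. No share by gene was computed. Median GC content was 62.3% in the glycolysis windows, 61.2% in those of genes kept and 52.7% in all, and the part of base composition in the share was not tested. Of the other lists searched, 8 of 26 proliferation windows (30.8%) and 7 of 35 complex I windows (20%) held the letters. Several lists had a window for a smaller part of their genes than these 3, and no share is compared for them. The background of genes kept is limited in the same way, with a window for 78.9% of its genes. Fatty acid oxidation, a list that was higher in TELP N9, had 19 windows for 19 of 24 genes, 1 of them with the letters. For 28 of 36 hypoxia-induced genes there were 40 windows, 23 of them with the letters. For 15 of 22 matrix enzyme genes, a list that was lower in TELP N9, there were 15 windows, 6 of them with the letters. A match describes the letters only and is not evidence of a bound site.

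Fat cell genes were higher as a group. Of 32 adipocyte identity genes kept, 27 were higher and 1 lower, with a median of 1.46. Rbp4, which encodes the retinol carrier secreted by fat and liver, was at 0.485 RPKM in the standard library and 60.0 in TELP N9 (5.50). Cfd, the gene of adipsin, was at 31.0 and 390.5 RPKM (3.82), and Retn, the gene of resistin, at 134 and 721 (2.63). Each of these was at 0.0611 RPKM or less in both day 0 libraries. Lgals12, a lectin of lipid droplets, was at 22.6 and 79.0 RPKM (1.97). The 1 lower member was Ebf1, an early adipogenic factor, at 91.6 and 37.4 RPKM (−1.06), which also stood higher at day 0 (112 and 132). Ffar4, a receptor for long-chain fatty acids and not on the list, was at 0.948 and 74.2 RPKM (5.43).

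The brown fat and thermogenic list had 16 of 27 members kept, of which 11 were higher and 1 lower, with a median of 1.64. The 11 members under the filter are not in that median. Among them were Prdm16 at 0.411 RPKM in the standard library and 0.772 in TELP N9, Dio2 at 0.0753 and 0.0647, and Zic1, listed at 0 in both. Cidea, a lipid droplet protein used as a brown fat marker, was at 2.94 RPKM in the standard library and 48.6 in TELP N9 (3.84). Cox7a1 and Cox8b, the heart and brown fat forms of cytochrome oxidase subunits, were at 9.10 and 112 RPKM (3.69) and at 70.2 and 472 RPKM (2.94). Elovl3, an elongase of brown fat, was at 4.00 and 41.9 RPKM (3.29). The lower member was Ppargc1a, the coactivator that drives mitochondrial growth, at 3.13 and 0.783 RPKM (−1.08). Ucp1, the uncoupling protein itself, was listed at 0 in the standard library and was at 0.882 RPKM in TELP N9, under the filter, so these libraries give it no usable difference.

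Lipid synthesis genes had 13 of 22 higher and 1 lower (median 1.08). Scd1, which desaturates stearate, was at 998 RPKM in the standard library and 6672 in TELP N9 (2.95). Mlxipl, the carbohydrate-responsive factor ChREBP, was at 1.25 and 7.22 RPKM (2.02), and Srebf1, the sterol-linked regulator of lipogenesis, at 30.2 and 101 (1.92). Elovl6, which lengthens palmitate, was the lower member, at 9.13 and 3.44 RPKM (−1.01). Fatty acid oxidation had 17 of 24 higher and 0 lower (median 1.29), led by the peroxisomal thiolase Acaa1b at 111 and 676 RPKM (2.81) and by Acaa1a at 49.4 and 205 (2.24). These thiolase genes are close copies of each other, so the split of reads between them is uncertain. Cpt1b, the muscle and brown fat gate for fatty acid entry into mitochondria, was at 13.2 and 47.1 RPKM (1.97). Caveolae, the surface pits that are abundant in fat cells, had 6 of 7 genes higher and 0 lower (median 1.19), with Cav2 at 49.1 and 133 RPKM (1.63).

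Genes of the respiratory chain moved in the same direction, and part of that difference was present at day 0. Complex I had 24 of 37 higher and 0 lower, with a median of 1.23 at day 7 and 0.39 at day 0. Complexes II to IV had 19 of 25 higher and 0 lower, with 1.25 and 0.36, and ATP synthase had 9 of 17 higher and 0 lower, with 1.04 and 0.56. Ndufs5, a subunit of complex I, was at 26.9 RPKM in the standard library and 209.6 in TELP N9 at day 7 (3.12), against 10.9 and 11.4 at day 0. Uqcr11, a subunit of complex III, was at 372 and 2016 RPKM at day 7 (2.65) and at 114 and 203 at day 0 (0.82). Atp5g3, which forms part of the membrane ring of ATP synthase, was at 273 and 1468 RPKM at day 7 (2.64) and at 91.4 and 211 at day 0 (1.20). The TCA cycle had 7 of 19 higher and 0 lower, with a median of 0.96 (−0.02 with equal totals), and Mdh2, malate dehydrogenase of the mitochondrion, was at 368 and 838 RPKM (1.40). Mitochondrial ribosomal proteins had 20 of 74 higher and 0 lower, with a median of 0.63 (−0.32 with equal totals).

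Hormone and stress responsive genes were also higher in part. The early response and AP-1 list had 9 of 14 higher and 0 lower (median 1.39), led by Fosl1, an AP-1 subunit, at 2.72 RPKM in the standard library and 35.6 in TELP N9 (3.48) and by Jund at 15.9 and 52.4 (1.87). Of 16 glucocorticoid targets 7 were higher and 0 lower (median 0.91). Dusp1, a phosphatase of MAP kinases, was at 6.12 and 35.4 RPKM (2.55). Cebpb, an early adipogenic factor, was at 21.9 and 113 (2.52), and Mt1, a metal-binding protein, at 249 and 1038 (2.27). Fkbp5, a textbook glucocorticoid target named after its value was seen, was not called, at 4.48 and 1.68 RPKM (−0.88). In the stress response list 6 of 22 were higher and 1 lower, and its median was 0.60, or −0.37 with equal totals. Trib3, a pseudokinase induced by amino acid shortage, was at 3.40 and 20.1 RPKM (2.45), and Calr, a chaperone of the endoplasmic reticulum, at 795 and 323 (−1.08).

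**Figure D2:**
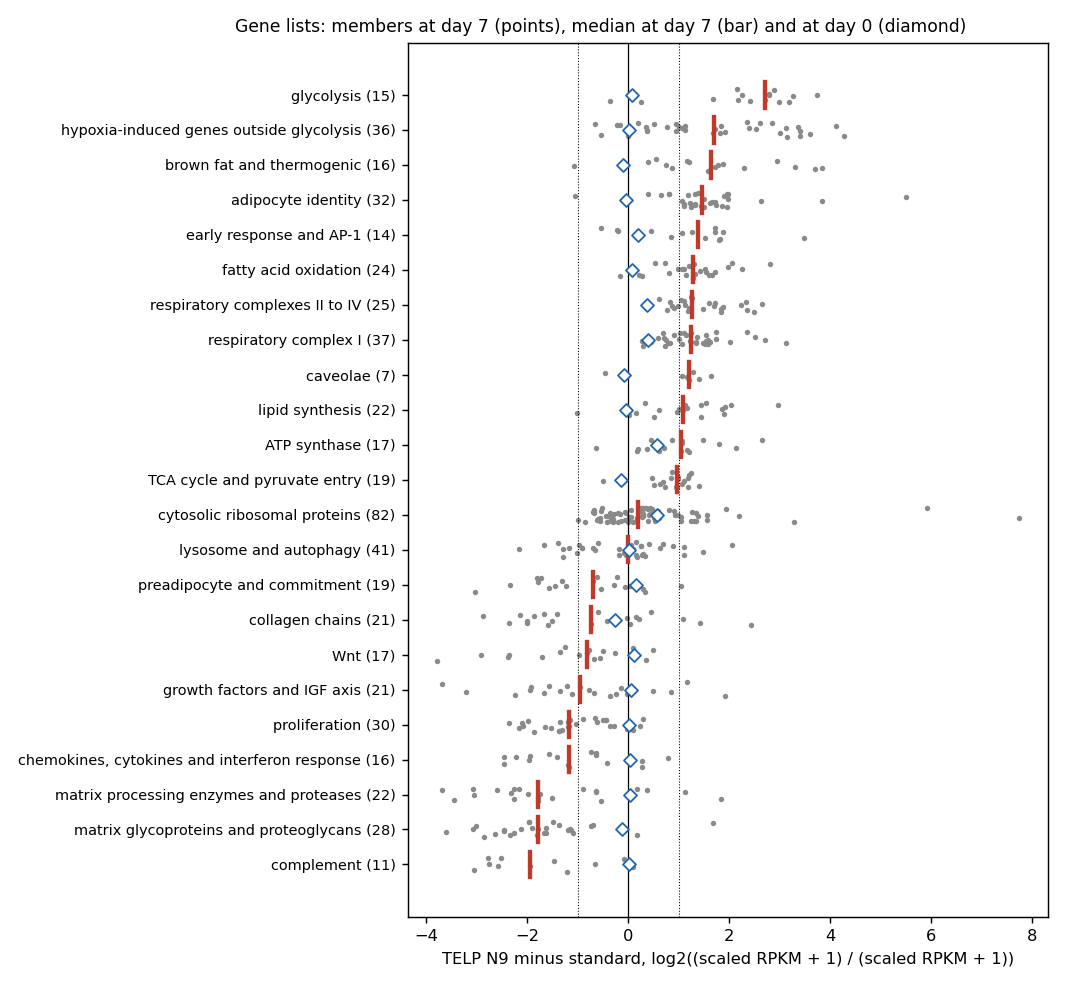
Difference between TELP N9 and standard libraries (log2 scale, x axis) for the kept members of 23 gene lists (number kept in brackets), with grey points for members at day 7, a red bar for their median at day 7 and an open diamond for the list's median in the day 0 pair. Dotted lines mark the rule of size. Day 7 medians run from 2.70 for glycolysis to −1.94 for complement, and day 0 medians stay between −0.27 and 0.58.

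Genes of the extracellular matrix stood lower in the TELP N9 library. Of 28 matrix glycoprotein and proteoglycan genes kept, 24 were lower and 1 higher, with a median of −1.79. Dcn, the gene of decorin, which binds collagen fibrils, was at 72.9 RPKM in the standard library and 4.32 in TELP N9 (−3.60). Ogn, a relative of decorin, was at 162 and 15.8 RPKM (−3.07), and Fn1, which encodes fibronectin, at 519 and 54.8 (−3.01). These genes were higher at day 0, when Dcn was at 128 and 112, Ogn at 822 and 703, and Fn1 at 842 and 769 RPKM in the standard and TELP N9 libraries. Thbs1, the gene of thrombospondin-1, was the 1 higher member, at 22.6 and 64.1 RPKM (1.67), while its relative Thbs2 was at 37.3 and 3.62 (−2.86).

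Most matrix enzymes and proteases were lower as well. Of 22 kept, 14 were lower and 2 higher, with a median of −1.78. Mmp2, a gelatinase, was at 190.2 RPKM in the standard library and 11.9 in TELP N9 (−3.68). Mmp14, the membrane protease that activates it, was at 246 and 18.6 (−3.45), and Timp2, an inhibitor that takes part in that activation, at 583 and 59.7 (−3.05). Lox, which crosslinks collagen, was at 426 and 42.9 RPKM (−3.07), and is listed at 0 in the TELP N9 library of day 0 against 749.6 RPKM in the standard one. The 2 higher members were Plod1 (24.6 and 78.0 RPKM, 1.83) and P4ha1 (22.6 and 43.4, 1.12), collagen hydroxylases that also stand on the hypoxia-induced list.

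Collagen chains did not move as a block. Of 21 kept, 10 were lower and 3 higher, with a median of −0.74. Col1a1 and Col1a2, the chains of fibrillar collagen I, were at 549 and 118 RPKM (−2.00) and at 649 and 108 RPKM (−2.36). Col12a1, which decorates collagen I fibrils, was at 21.5 and 1.73 (−2.87). Some chains of collagens IV and VI, which surround fat cells, lay closer together. Col6a2 was at 435 and 419 RPKM (0.16) and Col4a1 at 224 and 197 (0.03), both named after their values were seen. The collagen IV chains Col4a2 (−0.42) and Col4a5 (−0.74) were not called, and the latter lay at the median of the list. Col27a1 was the most raised chain, at 3.14 and 18.6 RPKM (2.43). Collagen medians were already below 0 in the day 0 pair (−0.27), and centring genes of similar genomic span brought the day 7 median to −0.21. Centring by mean level moved the day 7 median the other way, farther from 0 than −0.74. Under the other scalings it lay between −1.47 and −0.91, and over all alternatives between −1.47 and −0.05.

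Secreted signals and their receptors were lower in larger shares than the 13.1% of all genes. Among 21 growth factor and IGF genes 10 were lower and 2 higher (median −0.96). Igfbp5, which binds insulin-like growth factors, was at 119 RPKM in the standard library and 7.13 in TELP N9 (−3.69). Ptn, the gene of pleiotrophin, was at 1021 and 93.3 RPKM (−3.22), and Igf1 at 168 and 29.996 (−2.24). Vegfa, a HIF target that recruits vessels, was higher at 28.8 and 95.5 (1.91). The Wnt list had 7 of 17 lower and 0 higher (median −0.82), with the Wnt antagonists Sfrp1 at 30.4 and 1.05 RPKM (−3.78) and Sfrp2 at 135 and 14.5 (−2.92). BMP and TGF-beta genes had 9 of 24 lower and 1 higher (median −0.62), and Grem1, a BMP antagonist, was at 25.5 and 0.253 RPKM (−4.28).

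Immune genes of the mesenchymal cell were lower too. Of 16 chemokine, cytokine and interferon response genes 9 were lower and 0 higher (median −1.18), and 3 of the 9 are listed at 0 in TELP N9. Cxcl12, a chemokine that holds blood stem cells in place, was at 479 and 73.6 RPKM (−2.47). Complement genes, listed after their values were seen, had 8 of 11 lower and 0 higher (median −1.94). C1s1 and C1ra, proteases of the first complement component, were at 57.4 and 5.17 RPKM (−3.05) and at 49.6 and 5.50 RPKM (−2.76), and C1rb at 26.7 and 2.54 RPKM (−2.78). C1ra and C1rb are near-identical copies, as are C1s1 and C1s2, so their separate values are uncertain.

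Proliferation genes were lower or not called. Of 30 kept, 18 were lower and 0 higher (median −1.17). Rrm2, a ribonucleotide reductase subunit made in S phase, was at 22.4 RPKM in the standard library and 3.03 in TELP N9 (−2.35). The helicase genes Mcm3, Mcm6 and Mcm4, which license replication origins, were at 16.8 and 2.50 RPKM (−2.17), 20.6 and 3.43 RPKM (−2.10), and 17.1 and 2.74 RPKM (−2.09). Mitotic genes were split. Bub1b, a spindle checkpoint kinase, was lower at 5.17 and 0.943 RPKM (−1.52), as was Top2a, which untangles chromosomes, at 26.6 and 6.70 (−1.64). Ccnb1 (5.74 and 4.81 RPKM, −0.03) and Cdc20 (6.73 and 6.94 RPKM, 0.23) were among the 12 not called. These mitotic genes were named after their values were seen. Replication-dependent histone genes went the other way, with 29 of 49 higher and 1 lower and a median of 1.16. The day 0 pair had a median of 0.58. Their transcripts lack a poly(A) tail, and many are near-identical copies whose values are uncertain. The part of either in the difference was not tested.

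Precursor markers were lower in part. On the list of preadipocyte and commitment genes 9 of 19 were lower, 9 not called and 1 higher (median −0.69). The higher member was Klf2, at 3.72 RPKM in the standard library and 7.55 in TELP N9 (1.04). Pdgfra, the receptor that marks adipocyte precursors, was at 52.0 RPKM in the standard library and 4.65 in TELP N9 (−3.04), and at 80.8 and 66.6 at day 0. Pdgfrb was at 74.8 and 12.02 RPKM (−2.33). The summed level of the whole list was 603 RPKM in the standard and 255 in TELP N9, and 1 member was at 0 in each. In the bar panels of 12 genes the standard day 7 library lay between the day 0 libraries and TELP N9 day 7 for Fn1, Dcn, Mmp2 and Pdgfra. In bulk RNA fewer cells of a type and less RNA per cell cannot be told apart, and the part of a different mix of mature and precursor cells in these differences was not tested.

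**Figure D3:**
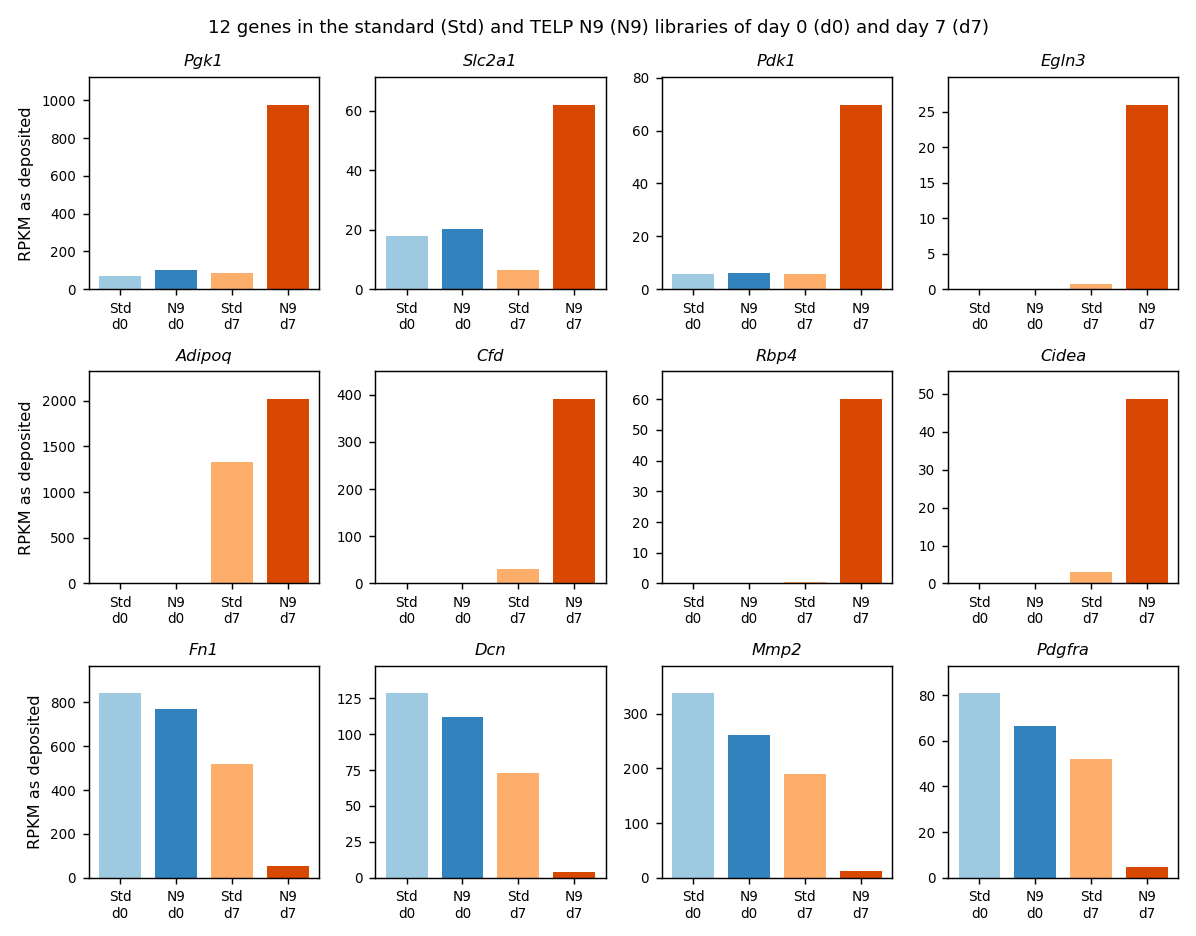
RPKM as deposited (y axis, starting at 0) of 12 genes in the standard (Std) and TELP N9 (N9) libraries of day 0 (d0) and day 7 (d7), 1 bar per library. The TELP N9 day 7 bar is the tallest for the 8 glycolysis, hypoxia and fat cell genes and the lowest for Fn1, Dcn, Mmp2 and Pdgfra, while both day 0 bars lie near each other.

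Over the 1382 genes called lower at day 7 that are not small RNA models, the median level was 15.8 RPKM in the standard library and 14.8 in the TELP N9 library of day 0, 9.74 in the standard library of day 7 and 2.22 in TELP N9 of day 7. Over the 1126 called higher the medians in that order were 5.77, 7.33, 12.3 and 31.4 RPKM. These genes were chosen by their day 7 difference, so the gap at day 7 is fixed by the choice and the medians are a description only.

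Markers of other lineages were sparse. Osteoblast markers had 3 of 9 kept, and all 3 were lower. Runx2, the master factor of bone, was at 6.15 RPKM in the standard and 2.11 in TELP N9 (−1.03), and Phex, a protease of osteoblasts, at 39.3 and 1.68 (−3.73). The third is Col1a1, which matrix-forming cells share. Chondrocyte markers summed to 2.10 and 4.29 RPKM over 9 genes, of which 1 was kept, the cartilage collagen gene Col11a2, which was higher at 0.665 and 3.09 RPKM (1.42). The summed level of 8 endothelial markers was 2.08 and 0.260 RPKM, that of 6 erythroid markers 0.244 and 0.210 and that of 8 epithelial markers 0.179 and 0.548, and none of these passed the filter. Macrophage and leukocyte markers summed to 3.54 and 6.19 RPKM over 9 genes, with Cd68 higher at 1.82 and 4.70 (1.17) and 7 of 9 at 0 in TELP N9. The summed level of 9 skeletal muscle markers was 6.10 and 8.66 RPKM, with 2 kept and 0 called, and that of 7 neural markers 5.99 and 1.13, with 1 kept and lower, the microtubule protein gene Map2 at 4.60 and 0.717 RPKM (−1.57).

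Several housekeeping groups lay near the median of all genes. Proteasome subunits had 3 of 45 higher and 0 lower, splicing factors 3 of 45 and 0, and secretory translocon and coat genes 1 of 25 and 0. Translation factors had 3 of 60 higher and 2 lower. Their medians were between 0.02 and 0.27, and each changed sign under at least 1 of the other scalings, equal totals among them. Cytosolic ribosomal proteins had 15 of 82 higher and 1 lower with a median of 0.20, below that of the day 0 pair (0.58), and this median was below 0 with values as deposited, equal totals and quantile normalization. Lysosome and autophagy genes had 4 of 41 higher and 7 lower. In the circadian list 4 of 17 were higher and 3 lower, with the repressor Nfil3 at 4.06 and 13.6 RPKM (1.72) and the clock output factor Dbp at 41.6 and 8.96 (−1.89).

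Among the lowest genes of the whole table were further matrix and adhesion genes on no matrix list. Mgp, the gene of matrix Gla protein, which keeps soft tissue from calcifying, was at 951 RPKM in the standard and 30.3 in TELP N9 (−4.71), and at 372 and 336 at day 0. Smoc2, a matricellular calcium-binding protein, was at 58.8 and 1.38 (−4.48). Cdh11, a cadherin of mesenchymal cells, was at 169 and 9.02 (−3.88). Rnase4, a secreted ribonuclease, was at 171 and 4.13 (−4.88). Among the highest, Sema3g, a secreted guidance cue, was at 0.101 and 13.9 RPKM (3.87). Other extremes were models with close copies. Rpl26 was listed at 0.000472 and 198 RPKM (7.74) and Rps27 at 1.93 and 155 (5.91), whereas Rps27rt, a copy of Rps27, was at 113 and 0.391 (−6.22). Such values can follow from how reads were shared between copies and are uncertain.

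Small RNA models behaved unlike the rest. They held 35.7% of the RPKM total in TELP N9 and 9.18% in the standard library. Of 45 small nucleolar RNA models 30 were higher and 12 lower, and of 80 microRNA gene models 25 were higher and 51 lower, while 39 higher and 61 lower genes of the whole comparison were listed at 0 in 1 of the libraries. Snord49a, which guides methylation of ribosomal RNA, was listed at 0 in the standard and at 86430 RPKM in TELP N9. In the other direction Snord42b was at 1781 RPKM in the standard and listed at 0 in TELP N9. The median of the microRNA models was −3.56, and 0.05 without models listed at 0. Gene models as short as these rest on few fragments, so single values say little.

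The difference followed gene size and level. When genes were put in 10 groups of equal size by genomic span, the median of the group with the shortest spans was 0.52, with 31.7% higher and 11.9% lower, and that of the longest was −0.53, with 3.36% higher and 28.5% lower. The same genes ran from 0.27 to −0.11 in the day 0 pair. By mean level, medians ran from −0.37 in the lowest to 0.59 in the highest of 10 groups. Centring each gene on its span group, an alternative chosen after seeing the data, left glycolysis at 2.62, brown fat genes at 1.55, adipocyte identity at 1.43, complex I at 1.05, histones at 0.67, matrix glycoproteins at −1.69 and proliferation at −1.18.

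**Figure D4:**
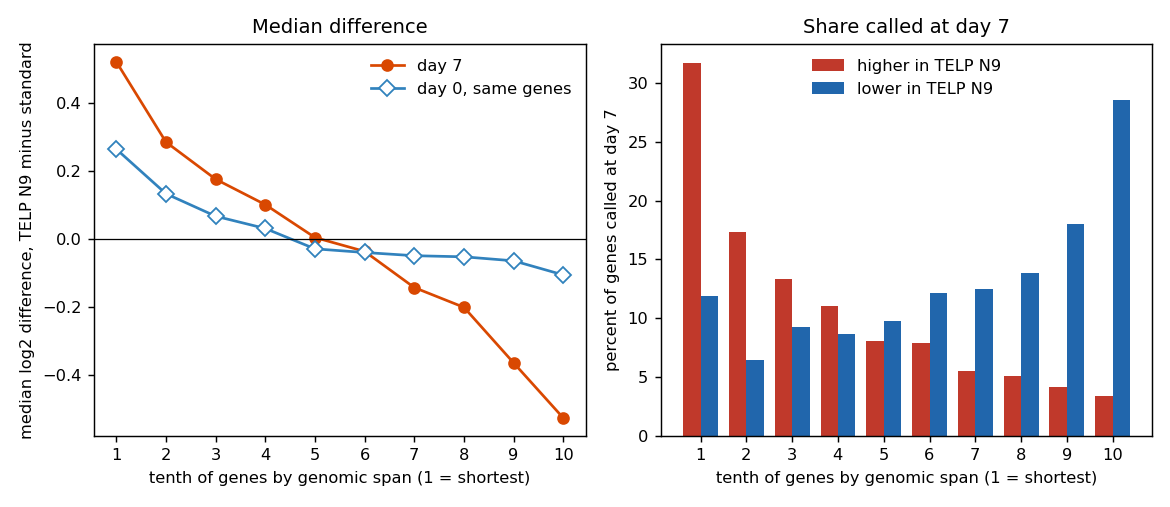
Left, median log2 difference between TELP N9 and standard libraries (y axis) in 10 groups of genes by genomic span (x axis, 1 is the shortest), for the day 7 pair (filled circles) and the same genes in the day 0 pair (open diamonds). Right, percent of genes (y axis) called higher or lower at day 7 in each group, where the higher share runs from 31.7% to 3.36% and the lower share from 11.9% to 28.5%.

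The same procedures gave fewer differences at day 0. Between the TELP N9 and standard libraries of day 0, which share no library with the day 7 pair, 248 of 11277 genes (2.2%) were higher and 81 (0.718%) lower, and 89.4% differed by less than 0.5. Genes higher at both days numbered 74, which is 6.24% of the day 7 calls and 29.8% of the day 0 calls. Genes lower at both days numbered 20 (1.38% and 24.7%), and 16 of them were small RNA models. Medians at day 0 were 0.02 for the 33 hypoxia-induced genes kept there, −0.05 for the 14 adipocyte identity genes kept there, −0.14 for matrix glycoproteins, 0.02 for matrix enzymes and 0.01 for proliferation. None of these 33 and 14 genes and none of the 15 glycolysis genes was called at day 0, and the other adipocyte identity genes were under the filter and could not be called.

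The other TELP libraries of day 7 are set beside these values, with the same standard library as the reference, so they are no independent support. With N9_ss in place of N9, 1177 genes were higher and 1475 lower. Single values of N9_ss lay close to those of N9, even for unstable or low models. Snord49a was at 82599 RPKM in N9_ss and 86430 in N9, and Grem1 at 0.242 and 0.253. Whether N9_ss and N9 share reads was not tested, so N9_ss is no separate check of N9. The T18 library gave 1058 higher (10.7%) and 1542 lower (15.6%) of 9886 genes against the standard. Its list medians were 1.23 for glycolysis, 0.82 for hypoxia-induced genes, 0.34 for adipocyte identity, −0.06 for brown fat genes, −0.34 for fatty acid oxidation, 1.42 for complex I, −0.93 for matrix glycoproteins, −1.06 for matrix enzymes, −0.51 for proliferation and −0.89 for complement. Replication-dependent histone genes had 53 of 56 higher and 1 lower in T18, with a median of 2.19. In T18 the scaling ratio to the standard library was 0.197 over 6691 genes, so its RPKM values as deposited lie lower for most genes. Fn1 was at 15.98 RPKM against 519 in the standard library. Pgk1 was higher even as deposited, at 148 against 84.7 RPKM.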

How the data were processed

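RNA was measured in 6 libraries, of which 4 enter the day 7 and day 0 pairs and 2 (N9_ss and T18) are set beside them. The authors deposited RPKM values for 24029 genes in 1 table. Bowtie2, TopHat, Cufflinks and the mm9 build are named per the submitters' processing notes. Versions, settings, annotation and use of strand were not stated in the labels or the table. Reads that fit several gene copies can therefore be split in ways that are not known.

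The scaling, the log2 differences, the filter of 1 RPKM and the rule of size (1 on the log2 scale) were computed from the deposited RPKM as described above, and tested on simulated data. Depth came from the ratio of 1-read steps (2.58 between the libraries, from 170 of 2027 low genes) and from 22 of 178 short genes after deducting 203 bp, so it is approximate. Members and lists were chosen with earlier results of these data known, and 4 of 62 lists were written after the present values were seen. Named genes are the 4 called members with the largest difference in a list's main direction and 2 in the other, the 12 highest and 12 lowest genes, and a check of 6 fat cell genes. Promoter windows were matched by symbol for 17974 genes. Spans are those of GRCm38.p6. Alternatives were a pseudocount of 0.1, other filters and scalings, left-out gene classes, N9_ss for N9, and 2 centrings added later. The immunoprecipitation samples were not analysed here. Python 3.11.15, pandas 2.3.3, numpy 2.4.6 and matplotlib 3.10.9 were used.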

Additional observations from a re-analysis of the deposited data

Results flagged for a closer look

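Beside models recognised by name as small RNAs, 9 genes were called in opposite directions in the day 7 and day 0 pairs. The difference between the days was not tested, because each pair holds 1 library a side. At day 7 the differences were −6.20 for Atp6v0c-ps2, −8.20 for AF357426, −3.62 for Pisd-ps1, −3.04 for Gm24148, −1.91 for LOC547349, −1.75 for 5730408K05Rik, −1.28 for Gm6525, −1.24 for Gm6402 and 2.22 for 2500002B13Rik. Atp6v0c-ps2, a pseudogene of a proton pump subunit, was at 82.4 and 232 RPKM in the standard and TELP N9 libraries of day 0 and at 78.3 and 0.00213 at day 7. AF357426 was at 310.4 and 752 RPKM at day 0, and at 315 and listed at 0 at day 7. Pisd-ps1 was at 0.0601 and 26.3 RPKM at day 0 and at 14.2 and 0.137 at day 7. By their names these 9 are pseudogenes, predicted genes or models of unnamed transcripts. A small RNA under such a name, which AF357426 may be, would not have been set apart.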

How the results depend on the processing

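No paired analysis was possible because each RNA group holds 1 library. Under the alternatives other than the centrings, 15 of 18 counts of higher or lower genes stayed within 1.5 times. The N9_ss counts among them are no separate check, because its values lay close to those of N9. The centrings, chosen after seeing the data, gave 1055 higher and 1237 lower genes by span, and 1092 and 1226 by level. The exceptions among the 18 were 825 lower genes with a filter of 5 RPKM, and 270 higher and 4932 lower genes with equal totals. Of the list medians, those of at least 1 in size that fell under 1 were as follows. With no filter they were 0.91 for brown fat, 0.92 for histones, −0.64 for chemokines, −0.53 for microRNA models and −0.60 for osteoblast markers. With values as deposited they were 0.86 for lipid synthesis, 0.82 for ATP synthase, 0.999 for histones and 0.98 for caveolae. With equal totals they were 0.47 for adipocyte identity, 0.10 for lipid synthesis, 0.31 for fatty acid oxidation, 0.26 for complex I and for complexes II to IV (0.2649), 0.0483 for ATP synthase, 0.62 for brown fat, 0.30 for histones, 0.52 for AP-1, 0.21 for caveolae and 0.80 for hypoxia-induced genes, where all genes had a median of −0.90. With quantile normalization they were 0.92 for adipocyte identity, 0.45 for lipid synthesis, 0.85 for fatty acid oxidation, 0.69 for complex I, 0.62 for complexes II to IV, 0.38 for ATP synthase, −0.90 for chemokines and 0.77 for caveolae. Without genes listed at 0 they were −0.75 for chemokines and 0.048 for microRNA models, which reversed. Centred by span they were 0.78 for ATP synthase and 0.67 for histones. Centred by level they were 0.98 for adipocyte identity, 0.49 for lipid synthesis, 0.70 for fatty acid oxidation, 0.64 for complex I, 0.67 for complexes II to IV, 0.47 for ATP synthase, −0.99 for proliferation, −0.88 for chemokines and 0.60 for caveolae. Of the named genes Fabp4 reversed, at −1.48 with quantile normalization. The cause of these changes was not tested. Glycolysis, matrix glycoproteins, matrix enzymes and complement kept their side of 1 under every alternative run. Depth limits genes near 1 RPKM in TELP N9, which rest on about 9.89 fragments for 2 kb, and fragments without molecular identifiers are not independent molecules.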

Other observations

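Gene groups outside the comparisons above held further differences at day 7. Imprinted genes had 6 of 15 lower and 1 higher (median −0.63). Mest, an imprinted hydrolase made in growing fat, was at 112 RPKM in the standard library and 16.6 in TELP N9 (−2.48), and Meg3, a maternally expressed noncoding RNA, at 40.6 and 7.06 (−2.17). Peg10, a gene derived from a retrotransposon, was the 1 higher member, at 0.294 and 11.1 RPKM (3.35), while it was at 0.666 and 0.649 in the day 0 pair. Axon guidance cues had 12 of 30 lower and 4 higher (median −0.73), with Slit2 at 7.05 and 0.727 RPKM (−2.08) and the receptor gene Nrp2 at 2.81 and 9.16 (1.59). Genes of primary cilium transport had 10 of 29 lower and 0 higher (median −0.76), led by Ift74 at 16.03 and 2.06 RPKM (−2.30).

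Contractile genes had 9 of 26 lower and 1 higher (median −0.33). Myl9, a smooth muscle myosin light chain, was at 21.3 and 2.89 RPKM (−2.34). Myl6, another myosin light chain, was the higher member at 322 and 619.7 (1.16). Glycogen genes, listed after their values were seen, had 6 of 18 higher and 1 lower (median 0.27, or −0.58 with equal totals). Gbe1, the branching enzyme, was at 13.5 and 89.7 RPKM (2.85), and Gys1, glycogen synthase, at 19.8 and 108 (2.60). Both stand on the hypoxia-induced list too. Branched-chain amino acid breakdown had 4 of 16 higher and 0 lower, with a median of 0.75 (−0.22 with equal totals), and Bckdha, a subunit of its committed enzyme, was at 29.2 and 119.8 RPKM (2.21). Tpsab1, a tryptase of mast cells and among the 12 highest genes, was at 4.40 and 73.2 RPKM (3.97), and at 0.248 RPKM or less in the day 0 pair.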
